A study of Mus musculus with 8 samples.

Results

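The 9 genes Irf1, Irf3, Irf7, Irf9, Stat2, Ifih1, Tlr3, Isg15 and Bst2 encode sensors of viral RNA, the transcription factors that switch on interferon and answer to it, and proteins that interferon induces. They were chosen by name from the 21938 protein-coding genes annotated on the chromosomes of the data. Around each gene, every open chromatin peak was taken that overlapped the gene body or the 50 kb to each side by at least 1 bp, in the mouse build mm10 (GRCm38). These windows held 63 of the 56514 peaks listed for mouse embryonic fibroblasts (MEFs), 43 of 36219 at day 5 of reprogramming, 45 of 35226 at day 10 and 59 of 48486 in embryonic stem cells (ESCs).

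The assay was ATAC-seq, which uses a transposase to cut and tag accessible DNA, and the 8 libraries came from 4 groups of 2. The OSKM day 5 and OSKM day 10 groups were MEFs 5 and 10 days after a first infection with pMXs retroviruses for Oct4, Sox2, Klf4 and Myc, with FLAG as the overexpression control, in ESC medium with vitamin C. MEFs and ESCs were not infected, and all groups were labelled Wildtype for knockout. The labels give the strain C57BL/6J-OG2, which carries a green fluorescent reporter driven by Oct4 sequence, to all libraries but ESC replicate 1, which is C57Bl6J, and the methods take the MEFs from mid-gestation embryos. The ESCs are placed on feeder fibroblasts by the labels and on gelatin in 2i/L medium by the methods. Infected cells differed from MEFs in the 4 factors, the retroviral infection, the medium and the time in culture at once, and these cannot be told apart. Nothing says whether the libraries of a group came from separate cultures.

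The authors deposited 1 peak list per group, so no spread between replicates can be given and no difference below was tested. The depth of the libraries is unknown. A gene without a peak in a list had no interval that passed the authors' threshold there, which does not show that its DNA was closed. The marker genes used to check the labels were chosen with earlier results of these data known, so the check is not independent. Peaks over a start site were counted at each. All 5 ESC markers (Nanog, Esrrb, Zfp42, Dppa4, Tfcp2l1) had one in the ESC list, against 2 in MEFs and 1 on each day. Of 5 fibroblast markers (Col1a2, Prrx1, Twist2, Thy1, Pdgfrb), 5 had one in the MEF list, 4 at day 5, 2 at day 10 and 1 in the ESC list. The leukocyte markers Ptprc, Spi1 and Itgam had none in any list (0 of 3). Of all protein-coding genes, 60.0% had one in the MEF list, 52.1% at day 5, 56.0% at day 10 and 55.8% in the ESC list.

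Cells detect viral double-stranded RNA with cytosolic helicases such as MDA5, the product of Ifih1, and with Toll-like receptors in endosomes such as TLR3. Both routes lead to kinases that phosphorylate IRF3 and IRF7, which then drive the type I interferon genes. Secreted interferon acts through its receptor on the complex ISGF3, which holds STAT2 and IRF9, binds the interferon-stimulated response element and raises genes such as Isg15, Bst2 and Irf7 itself. Fibroblasts are classical interferon-producing and interferon-responding cells, whereas ESCs are known for a weak interferon response.

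Of the 9 genes, 8 had a peak over at least 1 of their annotated start sites in the MEF list, 8 at day 5, 8 at day 10 and 6 in the ESC list. Over all protein-coding genes the shares were 60.0% (MEF list), 52.1% (day 5), 56.0% (day 10) and 55.8% (ESC). The 6 genes Irf1, Irf3, Irf9, Stat2, Ifih1 and Bst2 had a start-site peak in all 4 lists, a pattern shown by 46.8% of protein-coding genes. Irf7 and Tlr3 had one in MEFs and on both days and none in ESCs, as did 3.35% of protein-coding genes (734 of 21938). Isg15 had none in any list, like 35.4% of protein-coding genes. Among the 10991 protein-coding genes with a start-site peak in MEFs and on both days, 6.68% lacked it in ESCs, and among the 8 members 2 did. The members have more annotated starts than most genes (median 7 against 3), which gives a peak more places to overlap one. Irf7 counted as having an ESC peak when a peak within 1 kb of a start was enough, Tlr3 had no peak in any list over the 5′ end of its gene model, and both lacked the day 5 peak in the higher-scoring 50% of each list. In these bulk samples, a site open in fewer cells and a site less open in each cell cannot be told apart.

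**Figure D1:**
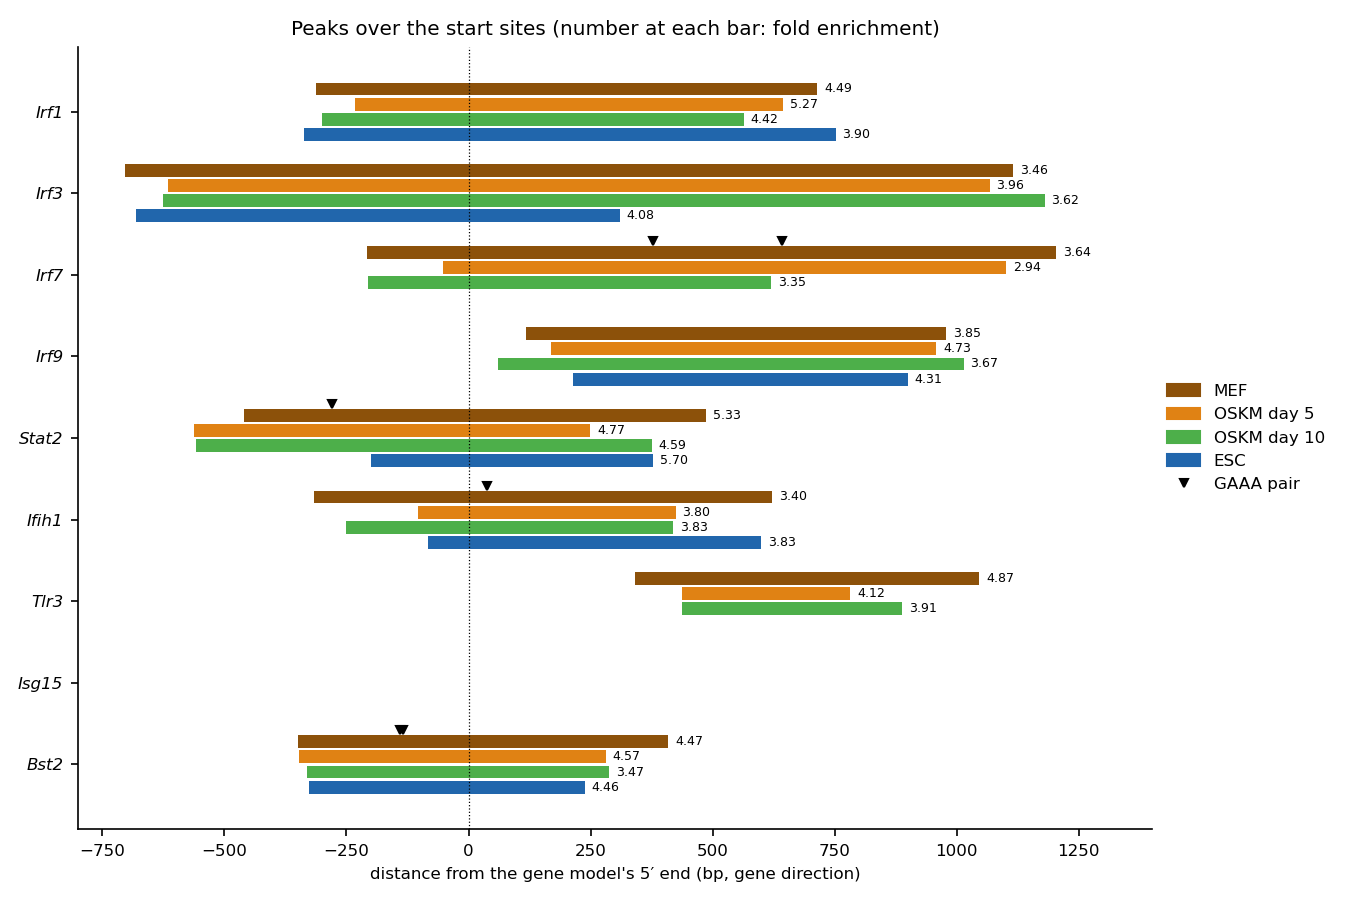
Peaks over the start sites of the 9 genes. The x axis is the distance in bp from the 5′ end of the gene model, in the gene's direction, each bar is the extent of 1 peak in 1 list (colour), the number beside it is the authors' fold enrichment, and triangles mark GAAA pairs inside the start-site region. Irf7 and Tlr3 have bars for MEF, day 5 and day 10 and none for ESC, Isg15 has no bar, and the ESC bar of Stat2 begins downstream of the triangle. A further ESC peak over an internal start of Stat2, 13.7 kb downstream, lies outside the axis.

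The sequence at these starts was read from the reference, since several of the genes are induced through a short element that can be seen in it. The element searched for, called a GAAA pair here, was GAAA, 2 bases of any kind, and GAAA again on either strand, which is the core of the interferon-stimulated response element. Of 32851 RefSeq promoters of GRCm38.p6, taken from 250 bases before to 50 bases after the start, 3.44% held it. All 9 genes had a promoter in that set (11 promoters), and 4 of the 9 genes, Isg15, Bst2, Ifih1 and Stat2, held at least 1 GAAA pair. By promoter that was 4 of 11. The promoters of these 4 genes are shown with Tlr3, whose start-site peak is missing from the ESC list. Capitals mark the GAAA pairs, read as TTTC on the other strand in Stat2, and in Tlr3 a match to an NF-kB site (GGGA, 2 bases and TTCC).
Isg15 promoter, chr4:156200769-156201068, minus strand: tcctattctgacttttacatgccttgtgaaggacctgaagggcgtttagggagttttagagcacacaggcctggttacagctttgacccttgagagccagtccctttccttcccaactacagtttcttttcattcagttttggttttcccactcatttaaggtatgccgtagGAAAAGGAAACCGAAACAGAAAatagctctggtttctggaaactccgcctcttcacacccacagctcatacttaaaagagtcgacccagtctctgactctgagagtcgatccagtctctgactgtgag
Bst2 promoter, chr8:71537423-71537722, minus strand: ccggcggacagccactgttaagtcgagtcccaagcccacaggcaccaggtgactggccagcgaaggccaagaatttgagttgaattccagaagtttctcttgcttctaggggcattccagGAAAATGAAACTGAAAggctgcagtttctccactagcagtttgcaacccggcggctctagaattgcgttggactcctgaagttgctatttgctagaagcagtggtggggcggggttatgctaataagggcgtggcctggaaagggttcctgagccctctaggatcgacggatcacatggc
Ifih1 promoter, chr2:62646206-62646505, minus strand: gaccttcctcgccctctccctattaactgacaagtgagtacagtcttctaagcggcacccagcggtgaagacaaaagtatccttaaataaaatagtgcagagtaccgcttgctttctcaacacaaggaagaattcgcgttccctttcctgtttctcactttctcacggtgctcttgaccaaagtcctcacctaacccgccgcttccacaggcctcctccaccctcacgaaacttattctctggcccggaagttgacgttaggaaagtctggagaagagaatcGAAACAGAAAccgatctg
Stat2 promoter, chr10:128270248-128270547, plus strand: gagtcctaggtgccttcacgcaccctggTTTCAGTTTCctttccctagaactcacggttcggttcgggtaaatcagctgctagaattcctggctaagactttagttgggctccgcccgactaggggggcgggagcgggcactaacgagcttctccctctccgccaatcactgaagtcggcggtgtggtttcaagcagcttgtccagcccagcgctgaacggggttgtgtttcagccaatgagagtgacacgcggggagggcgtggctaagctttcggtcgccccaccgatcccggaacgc
Tlr3 promoter, chr8:45410331-45410630, minus strand: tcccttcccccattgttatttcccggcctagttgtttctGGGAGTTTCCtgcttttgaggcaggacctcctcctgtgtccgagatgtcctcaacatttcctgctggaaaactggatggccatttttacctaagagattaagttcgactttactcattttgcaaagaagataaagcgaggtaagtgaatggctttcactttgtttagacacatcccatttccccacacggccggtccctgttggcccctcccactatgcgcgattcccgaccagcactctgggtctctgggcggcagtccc

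Isg15 carried 3 overlapping GAAA pairs, which begin at positions -78, -72 and -66 from the RefSeq start (the first base being +1) and make 1 unbroken run of capitals, and none of them lay in a peak of any list. Bst2 carried 2 overlapping pairs at -130 and -124, and both lay inside the Bst2 start-site peak in all 4 lists. The pair of Ifih1, at 33 bases downstream of the start, also lay in a peak in all 4 lists. In Stat2 the pair at -222 was inside the peak of MEFs, day 5 and day 10, whereas the ESC peak, which begins at chr10:128270359, started beyond the end of the pair at 128270285. Over the whole lists the median peak width was 709 bp in MEFs, 605 bp at day 5, 696 bp at day 10 and 610 bp in ESCs. With 1 list per group no spread can be given for a peak's edge, and the difference was not tested. The NF-kB match of Tlr3 at -211 lay in the peaks of MEFs, day 5 and day 10 and had no peak over it in ESCs.

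Irf7 had no GAAA pair in the 300 bases of its promoter, but its start-site peak reached further into the gene and held 2. They are shown with 10 bases to each side, in the direction of the gene, with the pair in capitals.
Irf7 exon match, chr7:141265825-141265854, minus strand: tcacacttgtGAAACTGAAAttcctacctg
Irf7 intron match, chr7:141266090-141266119, minus strand: actgtttaggTTTCATTTTCctgagatgca
The first lies in an exon, 642 bp from the 5′ end of the gene model, and was covered by the MEF and the day 5 peak. The second lies in an intron, 377 bp from the 5′ end, and was covered by the peaks of MEFs and both days. No ESC peak covered either. The start-site regions of Irf1, Irf3, Irf9 and Tlr3 held 0 GAAA pairs.

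The promoters were searched for 3 further elements. The gamma-activated site bound by STAT dimers, TTCNNNGAA, was found in 2 of the 9 genes, Irf1 and Bst2. By promoter that was 2 of 11, against 8.3% of all promoters. The Irf1 match, at -90, lay in a peak in all 4 lists, as did the Bst2 match at -136, which overlaps a GAAA pair. The NF-kB match occurred in 1 of the 9 genes and 1 of the 11 promoters, against 1.47% of all promoters. The AP-1 site TGANTCA was in 0 of the 11, against 7.81%. These matches are descriptions of letters in the reference, and no factor's binding was measured here.

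Ifih1, the cytosolic RNA sensor (chr2:62595798-62646255, minus strand), kept a start-site peak in every list while most other MEF peaks of its window were absent from the rest. The peak over its start measured 939 bp in MEFs, 528 bp at day 5, 669 bp at day 10 and 682 bp in ESCs. The authors' fold enrichment over background, which was set per list and is not compared between lists, was 3.40, 3.80, 3.83 and 3.83. By score these peaks were at the top 37.6%, 51.6%, 42.7% and 27.6% of their lists. Of the 10 merged regions of its window (peaks of any list within 400 bp joined), 6 had a peak in MEFs and not in ESCs. The closest start site to 4 of these 6 was that of Fap, which encodes fibroblast activation protein, and the other 2 lay in introns of Ifih1 itself, at 2.48 kb and 16.1 kb from its 5′ end. Only the region at 51.2 kb, just beyond the end of Ifih1, also had a peak on both days. In ESCs an intronic peak of 735 bp appeared 8.09 kb into the gene (chr2:62637801-62638535), with a fold of 4.92 in the top 5.76% of that list, and another of 331 bp lay 8.58 kb upstream. Within the gene body the MEF and the ESC list thus held different intronic sites, and neither day had any of the 3. The ESC site was mostly repeat sequence, with 92.3% of the bases in the stretch searched around its midpoint, described below. The mean over all ESC-specific regions was 26.4%. At the MEF sites the share was 0.0% at 2.48 kb and 27.7% at 16.1 kb. What part the repeats play in the ESC peak was not tested.

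Tlr3, the endosomal RNA sensor (chr8:45395665-45411080, minus strand), had a start-site peak of 705 bp in MEFs, 344 bp at day 5 and 451 bp at day 10. The folds were 4.87, 4.12 and 3.91, at the top 20.8%, 50.3% and 36.0% of the lists. The peak covered 6 of the 8 annotated starts and lay downstream of the most 5′ one, with its upstream edge 341 bp from it in MEFs. In MEFs it also covered the start of the unnamed gene model Gm45542. In the ESC list the nearest peak to any Tlr3 start was 16468 bp away, at chr8:45380511-45381818, and no peak lay between it and chr8:45611151 on the other side. The whole ESC window held 2 peaks, both nearest to the start of the neighbouring gene Fam149a and shared with all other lists. A region 37.3 kb upstream of Tlr3 (chr8:45447768-45448999) had the same pattern as the gene's start, with a peak in MEFs and on both days and none in ESCs. A 428 bp peak 43.4 kb upstream was listed at day 10 only.

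Irf3, the factor activated by both sensing routes (chr7:44997648-45002848, plus strand), had the widest start-site peaks of the 9 in MEFs and on both days, which also cover the start of the divergent neighbour Bcl2l12, so the 2 genes cannot be told apart. They were 1820 bp wide in MEFs, 1683 bp at day 5, 1806 bp at day 10 and 991 bp in ESCs. The downstream edge lay between 1066 and 1179 bp into Irf3 in MEFs and on both days and 309 bp into it in ESCs. The folds were 3.46, 3.96, 3.62 and 4.08. Of the 11 regions in the window 7 were shared by MEFs and ESCs, and 4 of these lay over starts of other genes (Cpt1c, Prmt1, Rras and Prr12).

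Irf7, the interferon-induced factor that amplifies interferon production (chr7:141262706-141266481, minus strand), had a start-site peak in 3 of the 4 lists. The peak over its start sites spanned chr7:141265278-141266688 in MEFs (1411 bp, 10 of 11 starts), 1153 bp at day 5 (9 starts) and 824 bp at day 10 (7 starts). The folds were 3.64, 2.94 and 3.35, and the peaks were at the top 15.2%, 69.1% and 35.2% of their lists, so that of day 5 was among the lower-scoring ones. In ESCs no peak covered a start. The nearest ESC peak, chr7:141263840-141264380, lay 751 bp from the closest Irf7 start, over exons and introns of Irf7, with a fold of 2.90 and a rank in the lower part of the list (73.8%). This 541 bp site had no peak in MEFs or on either day. Of the other regions of the window, 4 had a peak in all 4 lists, and these peaks covered the start of Rassf7 and that of Phrf1 in every list, that of Sct in all but day 5 and that of Mir210 in MEFs and at day 10. A region nearest to Drd4 was listed in MEFs only, another in MEFs and ESCs, and a region nearest to Deaf1 in ESCs only.

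Irf1, a factor induced by interferon gamma (chr11:53770014-53778374, plus strand), had similar start-site peaks in all lists, of 1026 bp in MEFs, 876 bp at day 5, 865 bp at day 10 and 1090 bp in ESCs, each over 9 of the 10 starts. The folds were 4.49, 5.27, 4.42 and 3.90, in the top 9.69%, 9.85%, 3.95% and 27.0% of the lists. Outside the start, 3 of the 8 regions had a peak in MEFs only and 2 in ESCs only. The MEF-only regions included an internal start of the gene model Gm12216, 26.2 kb downstream of the Irf1 start. The ESC-only regions lay 20.0 kb upstream and 30.1 kb downstream. The upstream one was 118 bp wide and ranked in the lower part of the ESC list (82.5%). Around its midpoint 90.3% of the bases were repeat sequence, against 7.7% for the downstream one. On both days the window was reduced to the 3 peaks shared by all lists.

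Stat2 (chr10:128270559-128292849, plus strand) and Irf9 (chr14:55603571-55610030, plus strand) encode parts of ISGF3. The Stat2 start-site peak was 946 bp wide in MEFs, 811 bp at day 5, 934 bp at day 10 and 578 bp in ESCs, with folds of 5.33, 4.77, 4.59 and 5.70, in the top 3.91%, 17.1%, 9.31% and 2.97% of the lists. The ESC peak was the narrowest and reached 200 bp upstream of the 5′ end, against 459 bp in MEFs, 562 bp at day 5 and 559 bp at day 10. The Stat2 window held the most ESC-specific regions of the 9, with 5 of 11. They included a 499 bp peak over an internal Stat2 start 13.7 kb into the gene. Others lay over internal starts of Il23a, which encodes a cytokine subunit, and of Timeless. None of these 5 had a peak on day 5 or day 10.

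The Irf9 peaks lay downstream of the 5′ end of the gene model and covered 1 of 7 starts in MEFs, at day 5 and in ESCs and 3 at day 10. Their widths were 861, 789, 954 and 687 bp, and their folds 3.85, 4.73, 3.67 and 4.31. The Irf9 window had the largest share of common regions of the 9 windows, with 8 of 9 regions common to MEFs and ESCs, 7 of them in all 4 lists and all 7 over a start site. These starts belong to a gene-dense stretch that includes Psme1 and Psme2, which encode the interferon-inducible proteasome activator, and Rnf31. The remaining region, over the start of Rec8, was in the ESC list only.

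Isg15, a ubiquitin-like protein and one of the most strongly interferon-induced genes (chr4:156199424-156200818, minus strand), had no peak over its single start or in its body in any list. The nearest peak was 1965 bp from the start in MEFs, 2756 bp at day 5, 2670 bp at day 10 and 2524 bp in ESCs. On both days it lay over a start of the neighbour Agrn, and in MEFs over the start of the gene model AW011738. The peak names carry numbers of replicate 1 that never fall along a chromosome, and the numbers missing between the peaks that flank the Isg15 start were 0 in MEFs and ESCs, 2 at day 5 and 1 at day 10. The stretch between these flanking peaks was much longer on the days, from 156198062 to 156234792 at day 5 and from 156198148 to 156228010 at day 10. It ran from 156198156 to 156202783 in MEFs and from 156198227 to 156203342 in ESCs. Over the whole lists 83.0% (MEF), 76.28% (day 5), 84.14% (day 10) and 75.46% (ESC) of the numbers were listed. What the numbers stand for is stated in no source, so a missing one is given here as a value only. For the ESC gaps at Irf7 and Tlr3 the missing numbers were 0 and 0. Of the 7 regions in the window 2 were ESC-specific, both inside Agrn, at 7.91 and 11.6 kb from the Isg15 start, and neither had a peak on either day.

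Bst2, which encodes the membrane protein tetherin that holds virus particles at the cell surface (chr8:71534255-71537456, minus strand), had a start-site peak over both of its starts in all lists. Its width was 758 bp in MEFs, 629 bp at day 5, 619 bp at day 10 and 565 bp in ESCs, and the folds were 4.47, 4.57, 3.47 and 4.46. The upstream edge was nearly the same in all lists, between 327 and 349 bp before the 5′ end. The Bst2 window held the most regions, 13, of which 4 were MEF-specific, 3 ESC-specific and 6 common. One of the ESC-specific regions, over the start of Tmem221 21.5 kb upstream, was the only one of the 18 ESC-specific regions in all windows that already had a peak at day 10.

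**Figure D2:**
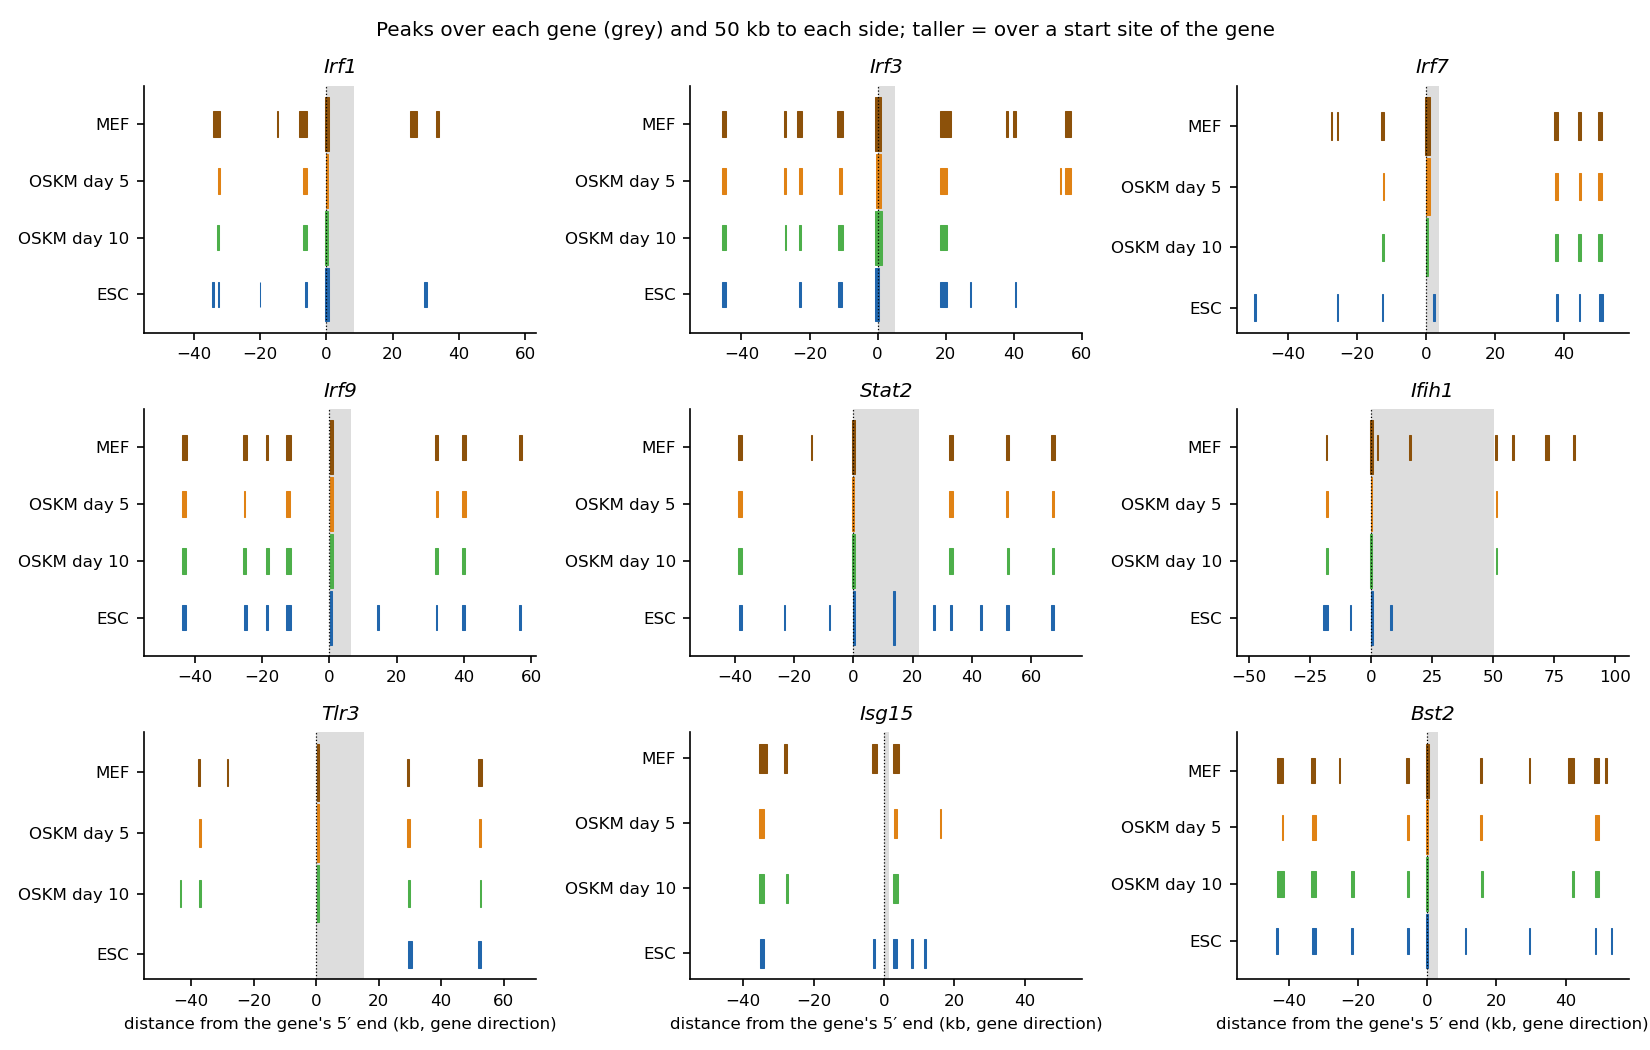
Peaks in the window of each gene. The x axis is the distance in kb from the 5′ end in the gene's direction, with the gene in grey, each row is 1 list, each bar is 1 peak drawn to scale with a thin edge so that narrow peaks stay visible, and taller bars cover a start of the gene. The ESC row of Irf7 and Tlr3 and every row of Isg15 lack a tall bar, the Ifih1 window has 5 MEF peaks that no other list shows, and the Stat2 window is fullest in ESCs.

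The number of peaks per window was compared next, to ask whether these loci gained or lost sites as the lists as a whole did. In the order MEFs, day 5, day 10 and ESCs, the counts were 8, 3, 3 and 4 for Ifih1, and 5, 4, 5 and 2 for Tlr3. For the factors they were 9, 8, 6 and 7 at Irf3, 7, 5, 5 and 7 at Irf7, and 6, 3, 3 and 6 at Irf1. Ifih1 and Irf1 thus kept 3 peaks on each day, against 8 and 6 in MEFs. The counts were 6, 5, 5 and 10 at Stat2, 8, 6, 7 and 9 at Irf9, 4, 3, 3 and 5 at Isg15, and 10, 6, 8 and 9 at Bst2. The median over the 9 genes was 7, 5, 5 and 7, against 5, 3, 3 and 4 over all protein-coding genes with windows built the same way.

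All 9 genes had more peaks in MEFs than at day 5, a direction seen in 63.2% of protein-coding genes, and 8 of 9 had more in MEFs than at day 10 (58.9%), with Tlr3 equal. At Irf9 the difference from day 10 rested on a MEF peak at the window's edge, whose region also had a day 10 peak just past that edge. Day 5 had fewer than ESCs in 7 of 9 (60.1%), and day 10 in 8 of 9 (55.8%), Tlr3 being the exception both times and Irf3 at day 5. The Irf3 exception rested on a day 5 peak at the window's edge, whose region also had an ESC peak just past that edge. Day 10 had more peaks than day 5 in 3 of 9 (Irf9, Tlr3, Bst2, against 33.0% of protein-coding genes), fewer in 1 (Irf3, against 20.5%) and as many in 5. The 4 lists differ in length, and windows of neighbouring genes share peaks, so the counts are no independent measure of the loci. Between MEFs and ESCs 4 of the 9 had more peaks in MEFs (Irf3, Ifih1, Tlr3, Bst2, against 42.2% of protein-coding genes), 3 had more in ESCs (Irf9, Stat2, Isg15, against 35.6%) and 2 were equal.

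**Figure D3:**
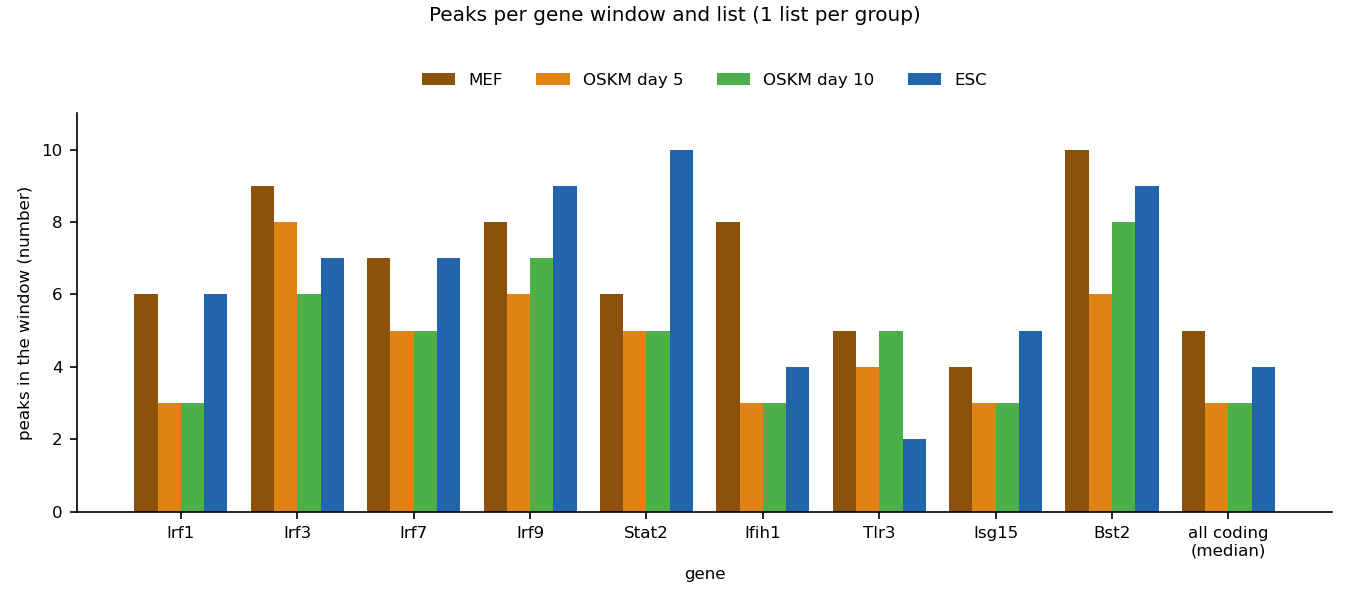
Number of peaks in the window of each of the 9 genes by list, with the median over all protein-coding genes at the right. Each bar is 1 list, so there are no error bars. All 9 genes have a taller MEF than day 5 bar, Tlr3 has its lowest bar in ESCs with 2 peaks, and Stat2 has its highest there with 10.

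Merging the peaks of the 4 lists gave 84 regions in the 9 windows, of 101701 in all. A region counts as present in a list also where its peak there lies just past the window's edge. By presence in MEFs and ESCs, 22 were MEF-specific (26.2% against 36.4% of all regions), 18 ESC-specific (21.4% against 28.4%), 41 common (48.8% against 19.1%) and 3 transient, present on a day and in neither end state (3.57% against 16.1%). With 25 kb to each side the order of the first 2 classes turned, to 12 MEF-specific and 16 ESC-specific regions. The 9 loci thus held a larger share of common and a smaller share of transient regions than the whole set. Of the 84 regions, 47 (56.0%) covered a start site of some gene against 16.3% of all regions. The whole set is not limited to windows around genes, and classes were not counted in windows of other genes. Whether these differences are particular to the 9 loci was therefore not tested. Of the 36 regions in all 4 lists, 33 lay over a start site. The closest start was that of the member itself for 6 of the 22 MEF-specific, 4 of the 18 ESC-specific and 6 of the 41 common regions, and 67 of the 84 regions were nearer to the start of another gene.

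MEF-specific regions of these windows still had a peak at day 5 in 6 of 22 (27.3% against 14.2% over all MEF-specific regions) and at day 10 in 8 of 22 (36.4% against 14.8%). The start sites of Irf7 and Tlr3 were among them. Of the 18 ESC-specific regions, 0 were listed at day 5 (against 10.7%) and 1 at day 10 (5.56% against 12.6%). Seen from the lists, 71.4% of the MEF peaks in the windows overlapped a day 10 peak against 36.7% of all MEF peaks, and 62.7% of the ESC peaks in the windows did against 39.1% of all ESC peaks. The window peaks lay at a start site of some gene in 66.7% (MEF list), 76.7% (day 5), 82.2% (day 10) and 61.0% (ESC) of cases, against 25.1%, 31.9%, 35.8% and 26.9% of the whole lists. That larger share of start sites moves with the larger sharing between lists, and its part in it was not tested. These shares too were set beside all regions or whole lists, not beside windows of other genes.

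The 300 bases around the midpoint of each region were searched for the same elements, which reaches past the edges of regions narrower than 300 bp. The AP-1 site, typical of fibroblast enhancers, was in 5 of the 22 MEF-specific regions (22.7% against 39.5% of all MEF-specific regions) and in 2 of the 18 ESC-specific ones (11.1% against 9.29%). Among these ESC-specific ones is the Irf1 region of 118 bp, whose match may lie outside the peak. A GAAA pair was in 2 MEF-specific regions (9.09% against 4.41%), 4 common ones (9.76% against 2.67%) and 0 ESC-specific ones (against 3.4%). The 2 MEF-specific regions were the start site of Irf7 and the intronic site of Ifih1 at 16.1 kb. With so few regions these shares rest on single sites.

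Other genes of the pathway were read in the same way, from a list of 60 symbols of which 59 matched the annotation. A start-site peak was listed for 47 of the 59 in MEFs (79.7%), for 31 at day 5 (52.5%), for 40 at day 10 (67.8%) and for 29 in ESCs (49.2%). Beside the shares of all protein-coding genes given above, those of MEFs and day 10 were higher, that of day 5 was similar and that of ESCs was lower, differences that were not tested. In 24 of the 59 the peak was in all 4 lists and in 11 in none, patterns shown by 46.8% and 35.4% of protein-coding genes. The pattern of Irf7 and Tlr3, present in MEFs and on both days and absent in ESCs, was shown by 7 genes (11.9% against 3.35%). These were Tbk1 and Ikbke, the kinases that phosphorylate IRF3 and IRF7, Irf2, a relative of Irf1, and the interferon-stimulated genes Rsad2, Ifi35, Trim25 and Gbp2. A start-site peak in MEFs only was shown by as many, 7 of the 59, against 2.56% of protein-coding genes. Of the 59, 4 had one in MEFs and at day 10 only (against 1.47%) and 4 in all lists but day 5 (against 2.7%). None of the 59 had one in ESCs alone, a pattern shown by only 2.6% of protein-coding genes. These counts depended on the start definition. When a peak within 1 kb of a start was enough, the ESC count rose from 29 to 37 and the MEF count from 47 to 50. The counts of day 5 and day 10 rose to 35 and 44. The pattern of Irf7 and Tlr3 then held for 5 of the 59 genes. Shares of all protein-coding genes are not given for that setting. Whether the ESC share would still be the lower one was not tested.

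**Figure D4:**
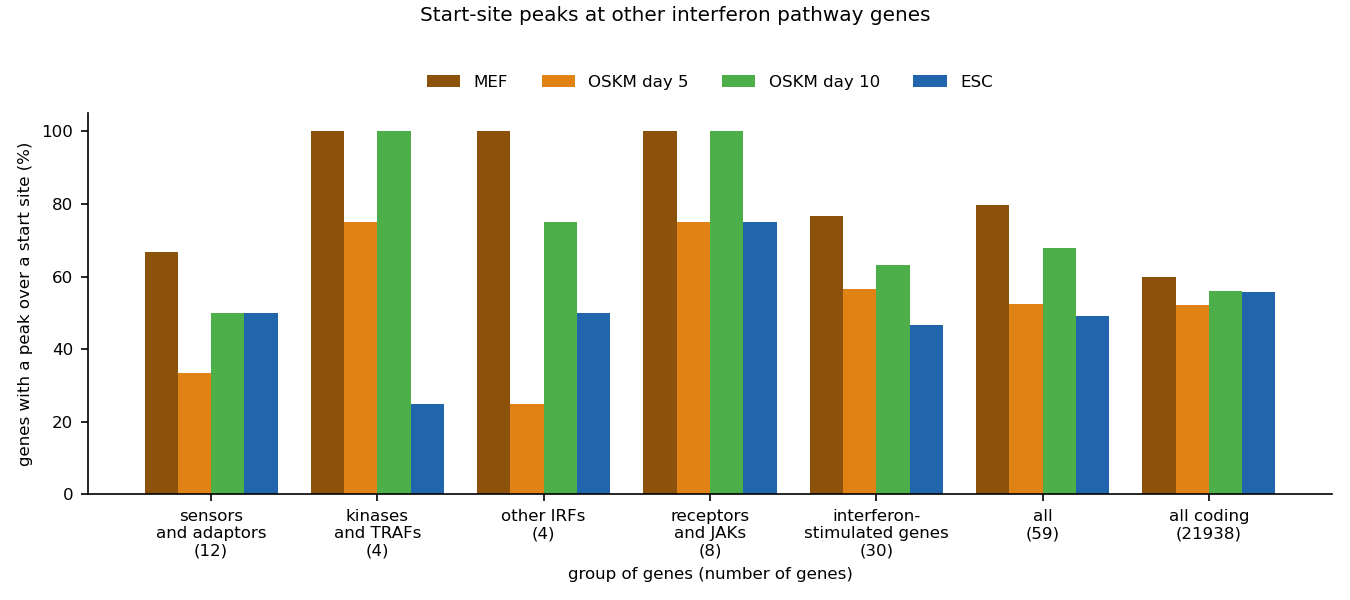
Percent of other interferon pathway genes with a peak over a start site, by role and list, with all protein-coding genes at the right. Each bar is the share in 1 list, with the number of genes under the role. The kinases and TRAFs have 4 of 4 in MEFs and 1 of 4 in ESCs, and the receptors and JAKs have 8 of 8 in MEFs and 6 of 8 in ESCs.

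By role, 8 of the 12 sensors and adaptors had a start-site peak in the MEF list, 4 at day 5, 6 at day 10 and 6 in the ESC list. These were 66.7%, 33.3%, 50.0% and 50.0%, against 60.0%, 52.1%, 56.0% and 55.8% of protein-coding genes. The roles hold few genes, and no difference from these shares was tested. Tmem173, which encodes the adaptor STING, had one in MEFs only, Ddx58, which encodes the sensor RIG-I, in MEFs and at day 10, Cgas, the DNA sensor, in all lists but day 5, and Unc93b1, which carries Toll-like receptors to endosomes, in MEFs and ESCs. All 4 kinases and TRAF adaptors had one in MEFs and at day 10, 3 at day 5 (Traf3 being the exception) and 1 in ESCs. Of the 8 receptors and JAK kinases, 6 had one in every list, and Ifnlr1 and Jak2 in MEFs and at day 10 only. Of the other IRF genes, Irf5 had one in MEFs only and Irf4 and Irf8 in all lists but day 5. The 1 ligand, Ifnb1, had none.

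Of the 30 interferon-stimulated genes, 23 had a start-site peak in the MEF list, 17 at day 5, 19 at day 10 and 14 in the ESC list. These were 76.7%, 56.7%, 63.3% and 46.7%, against 60.0%, 52.1%, 56.0% and 55.8% of protein-coding genes, differences that were not tested. Oas1a, Ifit1, Cxcl10, Nlrc5 and Uba7 had one in MEFs only, and Ifitm3 in all lists but day 5. Mx1, which encodes an antiviral GTPase, had one at day 10 only. Like Isg15, 6 of these 30 had no start-site peak in any list, against 35.4% of protein-coding genes. Of 49 pathway genes with a RefSeq promoter in the set, 15 held a GAAA pair, beside 3.44% of all promoters, a share counted by promoter and not by gene. The start-site peaks of these 15 genes numbered 13 in the MEF list, 8 at day 5, 10 at day 10 and 6 in the ESC list, against 29, 21, 27 and 20 of the 34 without a pair. In the 50 kb windows the pathway genes had a median of 6, 3, 3 and 4 peaks, against 5, 3, 3 and 4 for all protein-coding genes, so the window medians equalled the background except in MEFs.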

How the data were processed

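ATAC-seq libraries of 4 groups, 2 per group, were analysed as 1 deposited peak list per group. According to the labels and methods, the authors aligned reads to mm10 with bowtie2 (the submitters' processing notes name Bowtie2 2.2.0), and removed reads of low mapping quality, multiply mapped reads and mitochondrial reads. The labels and the methods differ in the bowtie2 version and the mapping quality threshold. The peak caller is not given in the sources used here. The lists are named as intersections and carry replicate 1's peak names, so an interval is probably what a replicate 1 peak shares with a replicate 2 peak, though no source says so. Each deposited row gives a score, a −log10 q-value and a ratio, the fold enrichment, all of which then describe the whole replicate 1 peak. The −log10 q-value times 10, cut to a whole number, equalled the score in 56512 of 56514 MEF rows, and the smallest −log10 q-value was just above 1 in each list. Columns of other samples numbered 0.

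Peaks were set against GENCODE mouse release 21 (start sites of all transcripts, exons of protein-coding transcripts), RefSeq promoters and the GRCm38.p6 sequence, with Python 3.11.15, numpy 2.4.6 and pandas 2.3.3. Overlap meant at least 1 bp, and peaks within 400 bp were merged into regions. Ranks are by score within a list, with the highest score first. No test was made, since there is 1 list per group. Overlap and merging were checked on simulated intervals. The genes named were the 9 members, pathway genes whose start-site pattern differed between lists, and neighbours with a start under a peak or closest to a described region. The members, the pathway genes and the markers were chosen with earlier results of these data known. The pathway list is given as 60 symbols, and 2 further genes fixed with it are not reported here and enter none of its counts. The symbol Mx2 had no protein-coding match in the annotation.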

Additional observations from a re-analysis of the deposited data

How the results depend on the processing

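Each count was recomputed with other windows, start-site definitions, merging distances and peak thresholds. Of 78 recomputed counts, 55 stayed within 1.5 times the reported one and 23 moved further. Windows of 25 kb held 33, 23, 24 and 36 peaks (MEF, day 5, day 10 and ESC lists), and windows of 100 kb held 100, 72, 78 and 100. With 25 kb there were 12 MEF-specific, 16 ESC-specific, 21 common and 1 transient region, so that ESC-specific regions outnumbered MEF-specific ones, and with 100 kb 33 MEF-specific, 31 ESC-specific and 67 common regions. The higher-scoring 50% of each list left 28 window peaks at day 5 and 34 in ESCs, 8 ESC-specific and 27 common regions, 5 genes with a start-site peak at day 5 and 17 pathway genes with one in ESCs. In equal lists of the 35226 highest-scoring peaks, 5 regions were transient.

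The pattern of a start-site peak in MEFs and on both days but not in ESCs, shown by Irf7 and Tlr3, depended on 3 choices. It held for 1 gene, Tlr3, when a peak within 1 kb of a start was enough, because the internal ESC peak of Irf7 then counted. It held for 1 gene, Irf7, when the 5′ end alone was used, since the Tlr3 peak lies downstream of it, as do those of Irf9, and both genes then had no start-site peak in any list. In the higher-scoring 50% it held for 0 genes, because Irf7 and Tlr3 lost their day 5 peak, as did Ifih1. With equal lists all 9 patterns were as reported.

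No paired analysis was possible because each group has 1 list and no result comes from a test, and leaving out each replicate was not run for the same reason. Depth is unknown, so lower depth and a missing peak cannot be told apart.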
